A study of Mus musculus with 6 samples.

Results

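Clusters of shared distal CDK6 regions were the stretches of the genome in which several CDK6 regions lay close together away from transcript starts and were occupied in every library. Peaks of the 4 anti-HA peak lists that shared at least 1 bp were merged into 56716 regions on chromosomes 1 to 19 and X. Of these, 16376 regions held a peak in all 4 lists, and 7237 of them lay at least 2000 bp from any transcript start of the GENCODE vM21 annotation (distal regions). Distal regions up to 12.5 kb apart were stitched, and stitched groups of at least 3 regions were kept. This gave 449 clusters with 1656 regions, or 22.9% of the shared distal regions. The other 5581 shared distal regions were in no cluster, with 3823 alone and 1758 in pairs, and 9139 shared regions lay within 2000 bp of a start. The members were thus chosen on peaks called in all 4 lists and on positions, so that presence of a peak in each library, proximity and distance from a start are not findings.

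The lists came from ChIP-seq in murine pre/pro-B cell lines transformed by BCR-ABL(p185), the fusion kinase of Philadelphia chromosome-positive acute leukemia. All lines carried Cdk6-/- and overexpressed an HA-tagged protein, either the wildtype form (CDK6-WT, n = 2 libraries) or the kinase-inactive form CDK6-K43M (n = 2 libraries). No treatment, time point or animal age is given for them, and nothing states whether a line was 1 clone or whether the 2 libraries of a variant came from separate cultures, so that the spread between them may be technical. Both forms were precipitated through the tag and were expressed ectopically. Whether loss of the kinase activity alters where and how strongly CDK6 sits on chromatin is the question that the 2 variants address. Input libraries are listed for the series and were not analysed here. The peak lists hold no transcript levels, so the cell type could not be checked against expressed markers.

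CDK6 is a cyclin-dependent kinase that partners D-type cyclins in the G1 phase. It has no DNA-binding domain of its own and reaches chromatin through transcription factors and other complexes. Stretches of closely spaced distal binding are a usual feature of strong enhancer domains, which in B cells often lie at genes of lineage transcription factors, of receptors and of their signalling chains, and which are occupied by factors such as EBF1, RUNX1, PU.1 and E2A. BCR-ABL signals in part through STAT5, whose target genes include feedback inhibitors of cytokine signalling such as Cish and the Socs genes.

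Windows of 201 bp around the summit, with 100 bp to either side, are shown for 8 members to make visible which letters lay under the signal. They were read from the RefSeq GRCm38.p6 sequence (mm10) on the plus strand and lie in introns or between genes. Capitals mark matches on either strand to the short motifs that were searched: RUNX (TGTGGTT), ETS (CNGGAAGT), PU.1 (GAGGAAGT), EBF (CCCNNGGGA), E-box (GCAGCTG), IRF (GAANTGAAA), AP-1 (TGANTCA) and STAT (TTCCNGGAA), where N is any base. Overlapping matches were counted separately. The ETS and PU.1 letters differ at their first base, so that no stretch can match both on the same strand. The windows at Inpp5d (chr1:87658082-87658282, intron), Ikzf1 (chr11:11763230-11763430, intron), Ebf1 (chr11:44624805-44625005, intron) and Cish (chr9:107323697-107323897, intergenic) are the members of their clusters with most of these motifs. Those at Socs3 (chr11:117946590-117946790, intergenic), Cd79b (chr11:106308235-106308435, intergenic), Il21r (chr7:125635540-125635740, intergenic) and Arid3b (chr9:57815995-57816195, intron) are the members of their clusters with the highest mean fold enrichment outside exons. For Il21r the cluster of 4 regions was used, whose mean level was higher. An intergenic member of the cluster of 7 regions there had a higher mean fold enrichment, with 18.8 against 16.5.
Inpp5d: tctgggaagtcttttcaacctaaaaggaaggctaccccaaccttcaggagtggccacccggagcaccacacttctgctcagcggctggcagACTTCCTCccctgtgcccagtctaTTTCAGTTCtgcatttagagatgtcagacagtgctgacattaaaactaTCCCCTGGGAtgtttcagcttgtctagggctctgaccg
Ikzf1: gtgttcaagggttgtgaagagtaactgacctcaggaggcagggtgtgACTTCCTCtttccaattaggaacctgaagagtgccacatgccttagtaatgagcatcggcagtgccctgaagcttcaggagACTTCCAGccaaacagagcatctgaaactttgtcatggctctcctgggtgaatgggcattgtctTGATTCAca
Ebf1: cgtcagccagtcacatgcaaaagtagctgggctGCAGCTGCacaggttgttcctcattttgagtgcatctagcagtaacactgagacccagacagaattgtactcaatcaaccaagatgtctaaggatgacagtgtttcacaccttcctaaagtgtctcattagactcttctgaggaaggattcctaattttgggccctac
Socs3: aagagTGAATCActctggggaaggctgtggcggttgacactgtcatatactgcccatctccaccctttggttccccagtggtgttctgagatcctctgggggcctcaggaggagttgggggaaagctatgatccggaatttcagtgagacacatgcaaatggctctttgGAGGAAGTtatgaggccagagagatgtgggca
Cish: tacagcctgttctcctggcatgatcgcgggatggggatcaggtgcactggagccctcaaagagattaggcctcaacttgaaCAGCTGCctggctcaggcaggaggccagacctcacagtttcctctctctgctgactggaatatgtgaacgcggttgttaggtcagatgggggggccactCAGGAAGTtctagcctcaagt
Cd79b: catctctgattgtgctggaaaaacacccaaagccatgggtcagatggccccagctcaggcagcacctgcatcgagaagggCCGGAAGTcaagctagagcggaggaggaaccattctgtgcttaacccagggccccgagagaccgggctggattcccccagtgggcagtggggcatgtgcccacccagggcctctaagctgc
Il21r: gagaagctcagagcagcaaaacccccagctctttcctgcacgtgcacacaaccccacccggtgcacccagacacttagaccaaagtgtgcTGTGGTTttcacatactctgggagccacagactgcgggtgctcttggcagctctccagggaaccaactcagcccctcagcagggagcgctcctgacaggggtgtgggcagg
Arid3b: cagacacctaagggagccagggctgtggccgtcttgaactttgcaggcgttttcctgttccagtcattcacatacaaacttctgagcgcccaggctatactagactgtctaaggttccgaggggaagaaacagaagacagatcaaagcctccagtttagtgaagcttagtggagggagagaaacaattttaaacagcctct

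The window at Inpp5d held 4 matches, to PU.1, IRF and EBF. By contrast, the window at Arid3b, whose fold enrichment of 29.1 in CDK6-WT replicate 2 was the highest of these 8 regions in any library, held no match to any of the 8 motifs. The window at Il21r held 1 RUNX match and that at Cd79b 1 ETS match. No match says only that these letters are absent from this window.

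Most clusters were small. There were 274 clusters of 3 regions, 102 of 4, 40 of 5 and 33 of 6 or more, with at most 10. The span from the first to the last base was 11944 bp in the median (quartiles 7902 and 16952 bp) and ran from 1800 to 61962 bp, and all spans together covered 6.07 Mb. Members filled 22.3% of the span in the median cluster, and neighbouring members were 2789 bp apart in the median. The largest gap inside a cluster was 12489 bp and the smallest gap between separate groups was 12513 bp, while the member closest to a start lay 2014 bp from it and the farthest shared region counted as near a start lay at 1996 bp. Clusters were found on every chromosome analysed, with 42 on chromosome 11, 38 on chromosome 5 and 1 on chromosome X.

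**Figure D1:**
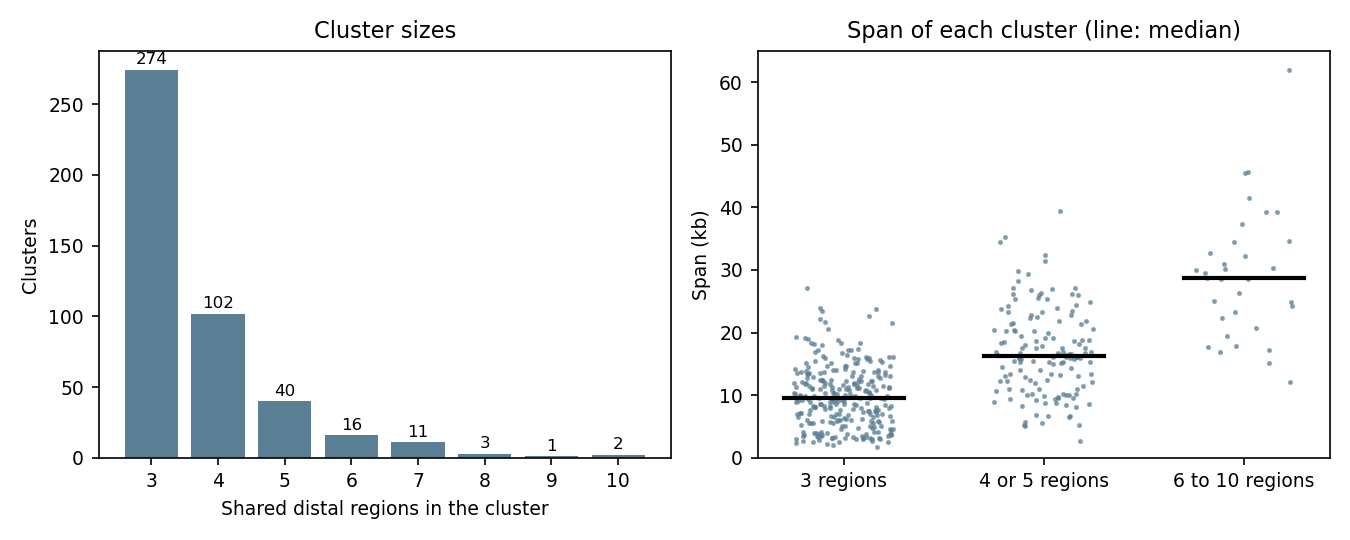
Left, number of clusters (vertical axis) by the number of shared distal regions they hold; right, the span of each cluster in kb (points) in 3 size classes, with the median as a line. Clusters of 3 regions make up 274 of the 449, and the longest span is 61962 bp.

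Of the 1656 members, 797 (48.1%) lay in introns, 740 (44.7%) between genes and 119 (7.19%) touched an exon, against 10.0% touching an exon among the shared distal regions in no cluster. A protein-coding gene held 183 clusters (40.8%) wholly within its body, while 187 clusters overlapped none and 53 had none within 50000 bp. In 54 clusters (12.03%) the span also enclosed a shared region near a start, which was not counted as a member. A further 875 merged regions of other kinds lay in the spans of 331 clusters. Of the distal ones among them, 777 in all, 4 (0.515%) had peaks in both CDK6-WT lists and in neither CDK6-K43M list, against 0.477% of the 24123 such regions elsewhere, and 18 (2.32%) had the reverse pattern, against 1.70% elsewhere.

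The genes beside the clusters included many of the lymphoid regulators that were listed. The members and lists were chosen with earlier results of these data known, so the shares below are a description and not an independent test. Over all 21755 protein-coding genes, 840 (3.86%) had a cluster within 50000 bp of the gene body, and 31.4% had any shared distal region within that distance. Of the 20 genes of the JAK-STAT pathway and its feedback inhibitors, 10 (50%) had a cluster. The corresponding counts were 11 of 36 (30.6%) for B-lineage transcription factors, 6 of 24 (25%) for the pre-B cell receptor and its signalling chain and 5 of 22 (22.7%) for lymphoid progenitor receptors and homing molecules. A cluster was near 0 of 30 nuclear-encoded subunits of oxidative phosphorylation (OXPHOS), the mitochondrial respiratory machinery, with a Wilson interval of 0 to 11.4% that holds the share of all genes, and near 1 of 21 cyclins, CDK4/6 genes and inhibitors (4.76%). The OXPHOS count was 2 of 30 (6.67%, against 6.30% of all genes) within 100000 bp and 3 of 30 (10%, against 6.95%) with peaks required in 3 of the 4 lists. At a stitching distance of 5000 bp the receptors and homing molecules had 0 of 22 and the JAK-STAT genes 5 of 20, against 1.99% of all genes. Markers of other blood lineages were at 1 of 14 T cell genes, 1 of 14 myeloid genes and 0 of 10 erythroid genes. The BCL2 family had 2 of 15, the MYC network 1 of 12 and genes reported as CDK6 targets 1 of 5. The counts for cyclins and CDK6 targets also moved with the setting. Within 100000 bp they were 4 of 21 (19.05%) and 3 of 5, against 6.30% of all genes. With peaks required in 3 of the 4 lists they were again 4 of 21 and 3 of 5, against 6.95%. At a stitching distance of 5000 bp both were 0. All listed genes together came to 39 of 220.

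**Figure D2:**
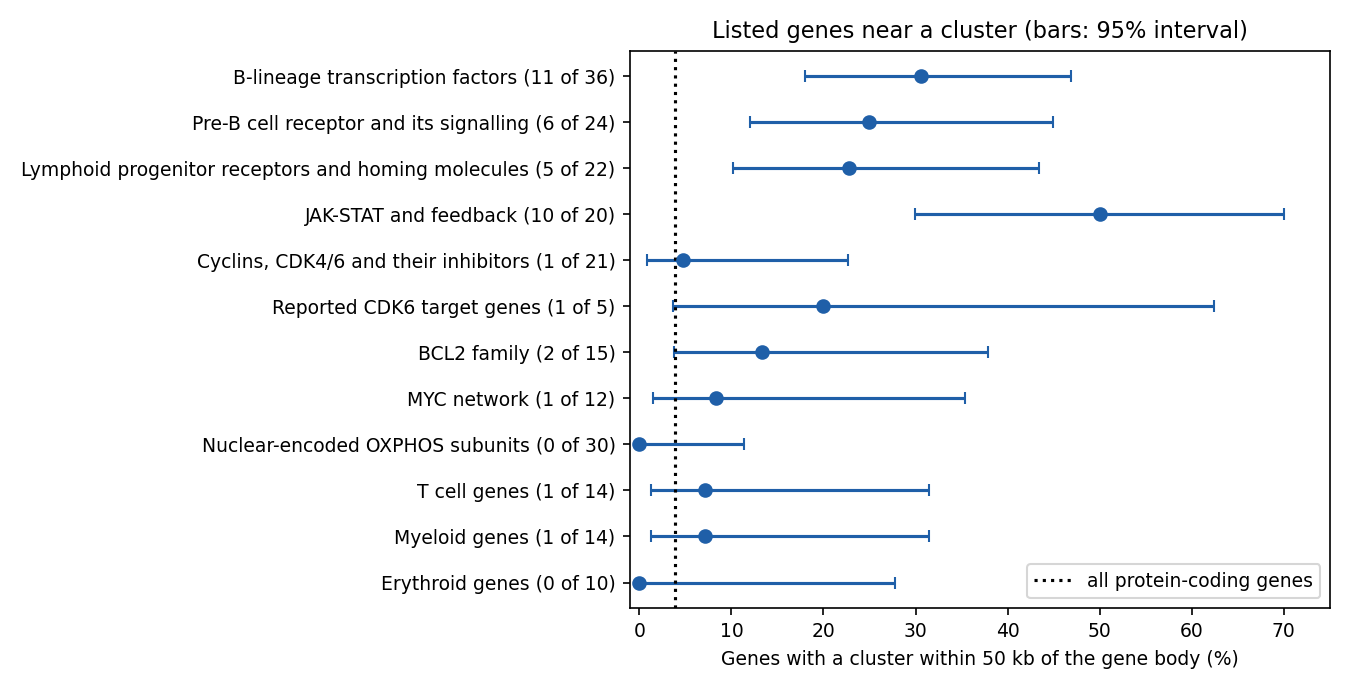
Share of the genes of each list that had a cluster within 50 kb of the gene body (points, horizontal axis in %), with 95% Wilson intervals as bars and the share over all protein-coding genes as a dotted line. The JAK-STAT list stands at 50% and the OXPHOS list at 0. The lists were chosen with earlier results of these data known.

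The lists also differed in how often they had any shared distal region. Such a region lay within 50000 bp of 16 of the 20 JAK-STAT genes, of 31 of the 36 B-lineage factors, of 19 of the 24 pre-B cell receptor genes and of 13 of the 30 OXPHOS genes. Among genes with one, a cluster was present for 62.5%, 35.5% and 31.6% of the first 3 lists and for 0 of the OXPHOS genes, against 12.3% of all protein-coding genes with one. Gene length moved with this: genes near a cluster had a median length of 29288 bp against 17414 bp for all protein-coding genes, and the listed genes near a cluster 54443 bp against 18008 bp for all listed genes. The part of gene length in these shares was not tested.

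Among the JAK-STAT genes, the clusters with most regions stood at the feedback inhibitors Socs3 and Cish. Socs3, which blocks cytokine receptor signalling, lay inside a cluster of 7 regions (chr11:117946360-117976498, with 2 shared regions near a start also in the span), whose mean fold enrichment was 10.5 in CDK6-WT replicate 1, 10.5 in replicate 2, 10.1 in CDK6-K43M replicate 1 and 10.9 in replicate 2. Cish, a direct target of STAT5, had 6 regions over 20797 bp, starting 2444 bp downstream of its gene body (chr9:107305228-107326024), with mean fold enrichments of 9.40 and 9.93 in CDK6-WT and 11.4 and 9.40 in CDK6-K43M. Socs1 had 5 regions within 6509 bp (6.77, 7.95, 9.44 and 7.995 in the same order), and Socs2 had 3. Of the upstream components, Jak1, a receptor-bound kinase, had 5 regions starting 11226 bp from its body (8.38, 11.6, 5.81 and 9.42). The neighbouring genes Stat3, Stat5a and Stat5b shared a single cluster of 3 regions (chr11:100842890-100855845) with values of 8.68, 6.94, 9.32 and 9.19, so that these 3 of the 10 counted genes rest on 1 cluster. Stat4 and Bcl6, a repressor that competes with STAT factors for sites, had 3 regions each.

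The B-lineage transcription factors with a cluster were Ebf1, Ikzf1, Foxo1, Runx2, Runx3, Bach2, Irf8, Myb, Foxp1, Erg and Fli1. Ikzf1, which encodes the lymphoid factor Ikaros, had 2 clusters, with 5 regions at the end of the gene (chr11:11762877-11778140) and 3 near its start. The 5 regions had mean fold enrichments of 6.78 and 9.59 in CDK6-WT and 7.24 and 10.1 in CDK6-K43M, where both replicate 2 values stood above both replicate 1 values. At Ebf1, which specifies the B lineage, 3 regions lay to both sides of the start (5.94, 8.75, 6.77 and 8.55), again with both replicate 2 libraries higher. Foxp1 had 2 clusters with 4 and 5 regions within its body. Bach2, a repressor of plasma cell genes, had 4 regions at 5.87, 5.83, 5.29 and 6.14, the lowest of the 11 genes. The cluster 454 bp from the body of Irf8, which acts in lymphoid and myeloid development, had values of 10.99 and 7.86 in CDK6-WT and 10.3 and 7.16 in CDK6-K43M, and a centred difference, replicate 2 minus replicate 1, of only -0.067.

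The pre-B cell receptor signals through Syk and PLCγ2 and is restrained by phosphatases. Inpp5d, which encodes the inositol phosphatase SHIP1, carried 10 regions in its introns (chr1:87625179-87659723), as many as any cluster held. Its mean fold enrichment was 8.12 and 9.06 in the CDK6-WT libraries and 8.71 and 10.0 in the CDK6-K43M libraries, and single regions ran from 2.96 to 19.1. Cd79b, a signalling chain of the receptor, had 4 regions (chr11:106305751-106319214) at 13.7 and 8.37 in CDK6-WT and 13.1 and 6.47 in CDK6-K43M. Pik3ap1, an adaptor that links the receptor to PI3 kinase, had 5 regions (chr19:41331059-41355875) at 8.29 and 17.8 in CDK6-WT and 8.99 and 19.3 in CDK6-K43M. The order of the replicate numbers was thus opposite at these last 2 genes, in both variants. Syk (3 regions), Prkcb (4 regions) and Plcg2 (2 clusters of 3) completed the list. Cxcr4, Il2ra, Ccr7, S1pr1 and Spn were the receptors and homing molecules with a cluster, and Il2ra had 2.

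Other listed genes had few clusters. Ccnd3, a D-type cyclin that partners CDK6 in B cell precursors, had 4 intragenic regions at 6.399 and 6.81 in CDK6-WT and 8.66 and 5.83 in CDK6-K43M. Egr1, an early growth response factor, had 3 regions 2998 bp from its body at 9.90, 5.32, 9.10 and 6.18. Pmaip1, which encodes the apoptosis mediator NOXA, had 3 regions at 13.4, 10.3, 10.5 and 9.24, and Bak1, an apoptosis effector, had 2 clusters. Tcf7 and Fcgr3 were the only T cell and myeloid genes of these lists with a cluster, at 5.51, 7.75, 8.10 and 6.38 and at 6.67, 5.56, 6.89 and 4.70.

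Among the clusters with most regions, Prkca, a protein kinase C gene, held 10 regions over the longest span (chr11:108215979-108277940) at 9.79 and 8.004 in CDK6-WT and 9.82 and 7.63 in CDK6-K43M. Prkce, of the same kinase family, held 8 (chr17:86336642-86382315) at 9.19, 11.3, 8.60 and 11.99. A cluster of 9 regions lay between genes near Snx5 and Mgme1 (chr2:144213504-144247970), one of 8 at Iscu and Tmem119 with Selplg within 50000 bp (chr5:113777733-113815075), and one of 8 had no protein-coding gene within 50000 bp (chr2:116972002-117000655). There were 11 clusters of 7 regions. The 6 of them with the highest summed fold enrichment stood at Tspan14, at Socs3, near Mxi1 and Smndc1, at Il4ra and Il21r, at Sema7a and at Arid1b. The cluster near Mxi1 and Smndc1 overlapped no protein-coding gene. It lay 45237 bp from the body of Mxi1 and 30469 bp from the nearest protein-coding start, that of Smndc1. The highest mean levels were at Asb2 (17.5 and 12.8 in CDK6-WT, 14.5 and 10.5 in CDK6-K43M), at a 4-region cluster at the end of Il21r (12.02, 12.7, 13.4 and 17.5), at Pik3ap1, at Wnt10a (14.1, 14.5, 13.7 and 12.9) and in the Hist1 histone gene cluster at Hist1h2be (8.49, 18.2, 8.39 and 18.0). Il4ra and Il21r encode cytokine receptors that signal through JAK and STAT proteins and were not on the list.

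Fold enrichment, the summit signal over the local background as MACS2 gives it, varied within clusters. The sources used here do not state whether that background was taken from an input or from the ChIP library itself. The scaling factors recovered with the reads were 0.970 and 0.920 for CDK6-WT replicates 1 and 2. They were 0.812 and 1.0 for CDK6-K43M replicates 1 and 2. The recovery assumes that MACS2 scales the larger of a ChIP library and its control down, so a factor below 1 implies a separate control. Fold enrichment lay between 2.50 and 36.6 over all members and libraries. The median member rested on 22 to 31 summit reads, depending on the library, and the lowest member on 8, as recovered from the peak scores. The strongest member exceeded the weakest of its cluster by 1.82-fold in the median (quartiles 1.48 and 2.24) in the mean over libraries. The strongest member was the same region in all 4 libraries in 109 clusters (24.3%). It was the same in both replicate 1 libraries in 300 clusters (66.8%) and in both replicate 2 libraries in 278 (61.9%), but in both CDK6-WT libraries in 206 (45.9%) and in both CDK6-K43M libraries in 204 (45.4%).

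At Socs3 this was seen region by region. The first region of the cluster had fold enrichments of 19.5 and 11.98 in CDK6-WT replicates 1 and 2 and of 19.3 and 11.7 in CDK6-K43M. The fifth region, 19.2 kb into the cluster, had 8.35 and 18.1 in CDK6-WT and 7.67 and 22.6 in CDK6-K43M. Neighbours within 1 cluster thus stood highest in different replicate numbers, and in both variants alike. At Cish, the third region had 18.7 and 9.36 in CDK6-WT and 24.96 and 8.26 in CDK6-K43M, with both replicate 1 libraries higher. All 5 regions at Pik3ap1 were higher in both replicate 2 libraries; the first of them had 9.57 and 25.9 in CDK6-WT and 10.9 and 21.5 in CDK6-K43M.

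**Figure D3:**
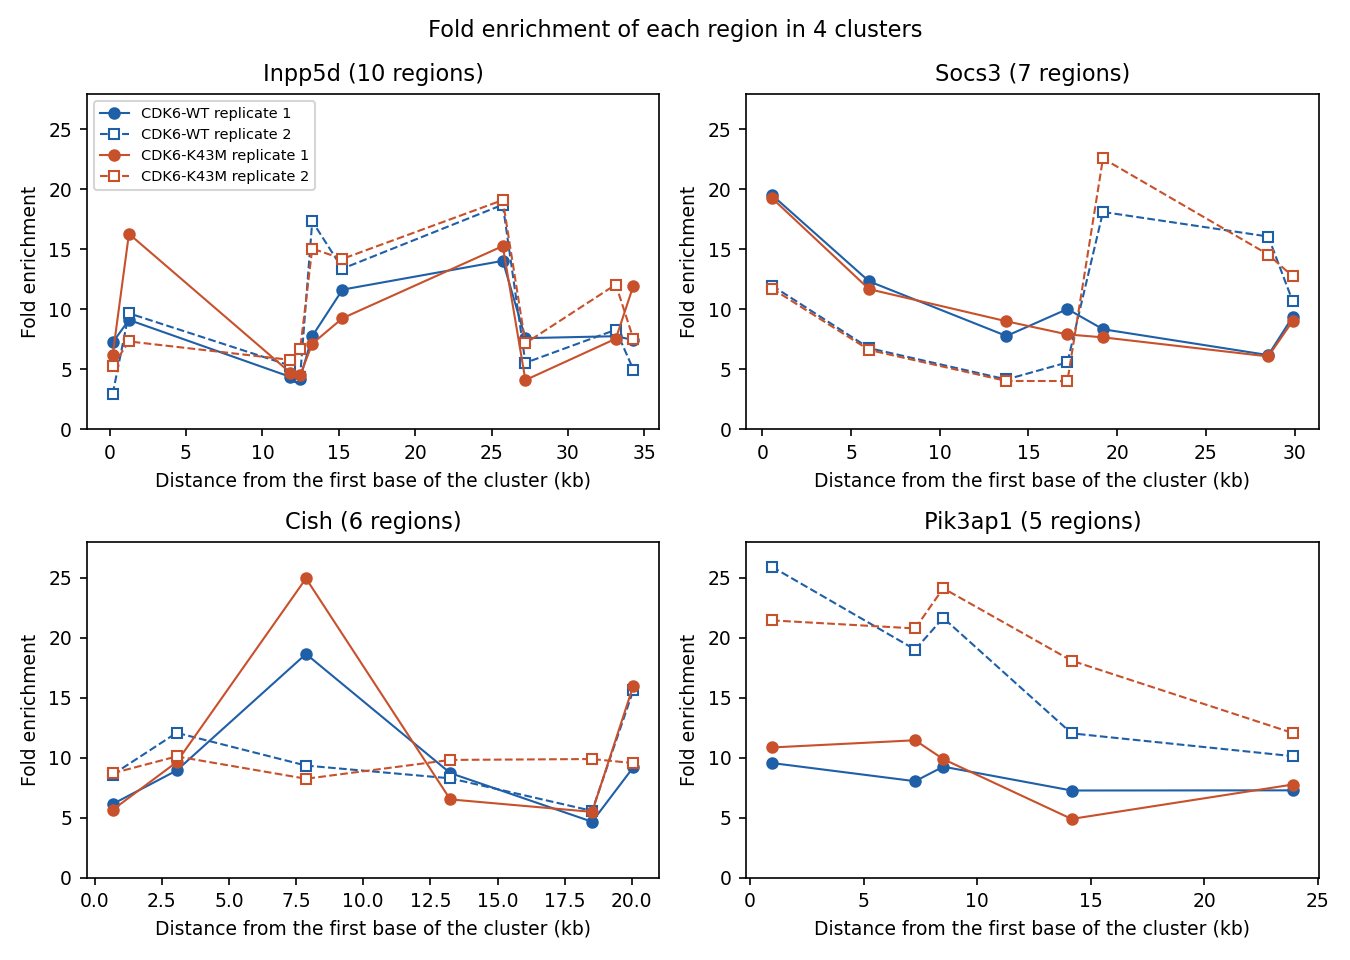
Fold enrichment (vertical axis) of each region in the clusters at Inpp5d, Socs3, Cish and Pik3ap1 against the distance from the first base of the cluster in kb, with 1 line per library (blue, CDK6-WT; red, CDK6-K43M; filled circles, replicate 1; open squares, replicate 2). At Socs3 the replicate 1 lines lie above at the first region (19.5 and 19.3) and the replicate 2 lines at the fifth (18.1 and 22.6), while the 2 variants of a replicate number lie close together.

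Levels of the members were not detectably different between the variants. Members and the other shared regions all needed a peak in each of the 4 lists. A region without a peak in 1 variant could therefore not enter this comparison. The median fold enrichment over the 1656 members was 7.78 and 7.38 in CDK6-WT replicates 1 and 2 and 7.91 and 7.40 in CDK6-K43M. The corresponding medians were 7.45, 7.22, 7.64 and 7.12 in the shared distal regions in no cluster and 9.73, 6.46, 9.97 and 6.23 near starts. For comparison between libraries, log2 fold enrichment was centred on the median of each library over the 16376 shared regions. On this scale the median over members was 0.00090 ± 0.226 in CDK6-K43M and -0.0061 ± 0.186 in CDK6-WT (SD, n = 2 each), a difference of 0.0070 (p = 1.0, two-sided, exact permutation test). With 4 libraries this test cannot give a p below 0.33. Within replicate 1 the difference was -0.021 and within replicate 2 it was 0.035, so that the direction was not the same.

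Region by region, limma called 0 members and 0 of all 16376 shared regions (0%) between the variants at an adjusted p under 0.05, and the smallest adjusted p among members was 1. An unadjusted p under 0.05 was reached by 3 members (0.181%), against 22 of all shared regions (0.134%). The 95% interval of a member reached 1.09 to either side of its log2 difference in the median, and 0.546 with the replicate number as a block, where limma also called 0 members (83 of them had an unadjusted p under 0.05). Differences within these intervals were not detectable here. Both CDK6-K43M libraries stood above both CDK6-WT libraries in 114 members (6.88%), against 7.24% of all shared regions, and the reverse held in 129 (7.79%), against 8.07%. Members were therefore near the background in both directions.

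The 3 clusters with the largest difference in each direction were still small in difference. CDK6-K43M was highest relative to CDK6-WT at M1ap, with mean fold enrichments of 6.96 and 5.58 in CDK6-WT and 8.80 and 8.30 in CDK6-K43M (0.45 on the centred log2 scale), followed by Myof (0.42) and the 4-region cluster at Il21r (0.42). It was lowest upstream of Plcg2 (chr8:117465344-117480828), the phospholipase of the pre-B cell receptor, at 11.001 and 6.79 in CDK6-WT and 7.02 and 5.75 in CDK6-K43M (-0.45), then at a cluster 106646 bp from the start of Ufm1 (-0.38) and at 1700113H08Rik (-0.38). These clusters were picked for this difference, and no test is given for them. The other cluster of Plcg2, within the gene body, was not among them. It stood at 7.48 and 7.97 in CDK6-WT and at 8.265 and 9.16 in CDK6-K43M (0.18). Over the 449 clusters the difference had opposite signs in the 2 replicate numbers in 238, was above 0 in both in 106 and below 0 in both in 105.

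**Figure D4:**
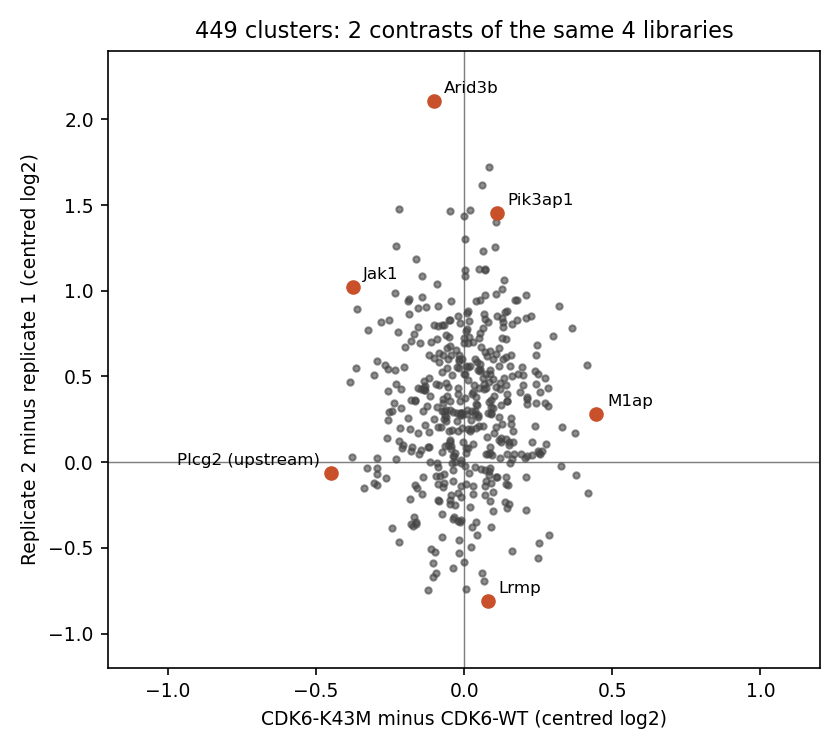
Each point is 1 of the 449 clusters, with the difference CDK6-K43M minus CDK6-WT on the horizontal axis and replicate 2 minus replicate 1 on the vertical axis, both as the mean over members of centred log2 fold enrichment. The horizontal spread runs from -0.45 (upstream of Plcg2) to 0.45 (M1ap) and the vertical one from -0.81 (Lrmp) to 2.11 (Arid3b).

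Libraries with the same replicate number resembled each other more. Across the 1656 members, centred log2 fold enrichment had a Pearson r of 0.78 between the replicate 1 libraries and 0.78 between the replicate 2 libraries, but 0.30 between the CDK6-WT libraries and 0.26 between the CDK6-K43M libraries. These r describe regions measured in the same 4 libraries and are not tests. Both replicate 2 values stood above both replicate 1 values in 813 members (49.1%), against 34.8% of all shared regions, and the reverse held in 292 (17.6%), against 34.5%. Without centring, replicate 2 was above in 480 members (29.0%), against 20.2% of all shared regions, and replicate 1 in 574 (34.7%), against 52.9%. The larger of the 2 counts of members thus changed with the scale, while members had the higher share for replicate 2 and the lower share for replicate 1 on both scales. The median of all shared regions differed by -0.38 between replicate 2 and replicate 1 before centring. Shared distal regions in no cluster gave 49.9% and 18.5% on the centred scale, so the excess was not particular to clusters. The median centred difference, replicate 2 minus replicate 1, was 0.29 over members (exact permutation p = 0.33) and -0.26 near starts.

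The same split was present in the recovered read numbers. For log2 summit reads, r across members was 0.82 and 0.83 within a replicate number and 0.37 and 0.33 within a variant. The local background under the peaks split in the same way, with r of 0.76 and 0.68 within a number and 0.061 and 0.080 within a variant, and its part in the levels was not tested. Whether a replicate number stands for a shared culture, day or input is not stated, and this cannot be told apart here.

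Clusters differed widely in this respect. Arid3b encodes a DNA-binding factor. Its 3 regions averaged 6.41 and 5.92 in replicate 1 and 20.7 and 19.8 in replicate 2, a centred difference of 2.11. The strongest of them, whose window is printed above, rested on 25 and 29 summit reads in replicate 1 and on 91 and 78 in replicate 2. Lrrc28 (5.55 and 6.398 against 15.6 and 15.8) and Traf5, a signalling adaptor of TNF receptors (5.07 and 5.28 against 12.5 and 12.9), followed. The opposite end held the cluster near Lrmp and Bcat1, at 12.6 and 12.9 in replicate 1 and 5.28 and 5.82 in replicate 2, and, after a cluster with no protein-coding gene within 50000 bp, Cyth1, at 15.2 and 14.7 against 6.83 and 7.47. These clusters were chosen for this contrast and are a description. Other clusters at Cyth1, of 5 regions each, were not among them. Their centred differences, replicate 2 minus replicate 1, had the other sign, with 0.24 and 0.63.

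Motifs of B cell transcription factors, and some of other factors, were more frequent at the summits than beside them. Of the 1656 summit windows of members, 14.98% held the E-box letters, 14.3% EBF, 13.5% RUNX, 10.4% AP-1, 8.09% ETS, 8.09% PU.1 and 5.07% IRF. Windows of the same length 1000 bp to either side held these motifs less often. The ratio of shares was 4.62 for PU.1 (95% interval 3.42 to 6.25), 4.19 for EBF (3.38 to 5.21) and 3.91 for IRF (2.72 to 5.62). It was 3.12 for RUNX (2.55 to 3.82), 2.97 for E-box (2.46 to 3.58), 2.20 for ETS (1.73 to 2.79) and 1.80 for AP-1 (1.48 to 2.19). This excess was not particular to clusters. In the shared distal regions in no cluster, PU.1 letters were in 9.03% of summit windows and 1.24% of flanking windows. EBF letters were in 15.7% and 2.78% of them, and IRF letters in 7.88% and 1.43%. The GATA motif, with the letters AGATAAG, was less frequent at summits, with a ratio of 0.63 (0.42 to 0.95), and that of NF-kappaB, with GGANTTTCC, did not differ beyond its interval, with 0.81 (0.41 to 1.64). At least 1 of RUNX, ETS, PU.1, EBF and E-box was present in 788 windows (47.6%, Wilson interval 45.2 to 49.99), against 52.3% (51.0 to 53.6) of the shared distal regions in no cluster. By cluster, 208 of 449 held an E-box match, 191 EBF, 186 RUNX, 120 ETS and 119 PU.1 in at least 1 window. The intervals cover counting error, and windows of 1 cluster are not independent.

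Compared with the shared distal regions in no cluster, members did not hold these motifs more often. The ratio of shares was 0.97 for E-box (0.85 to 1.10), 0.91 for EBF (0.80 to 1.04), 0.90 for PU.1 (0.75 to 1.08), 0.88 for ETS (0.73 to 1.05) and 1.00 for AP-1 (0.85 to 1.17). IRF letters were less frequent, with 5.07% of members against 7.88% in no cluster (ratio 0.64, 0.51 to 0.81), and so were RUNX letters, with 13.5% against 15.7% (0.86, 0.75 to 0.99). These were the 2 of 18 motifs whose interval left out 1. A RUNX and an ETS match in the same window occurred in 10 members (0.604%, Wilson interval 0.328 to 1.11) and in 84 of the regions in no cluster (1.51%, 1.22 to 1.86). STAT letters were rare, in 1.45% of members and 1.49% of the others, with a ratio of 0.97 (0.62 to 1.53). Shared regions near starts differed more from members: SP1 letters (GGGGCGG) were in 25.5% of them and 2.78% of members, and NRF-1 letters (GCGCATGCG) in 2.90% and 0.242%. Median GC content was 51.2% in members, 50.2% in no cluster and 61.7% near starts.

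**Figure D5:**
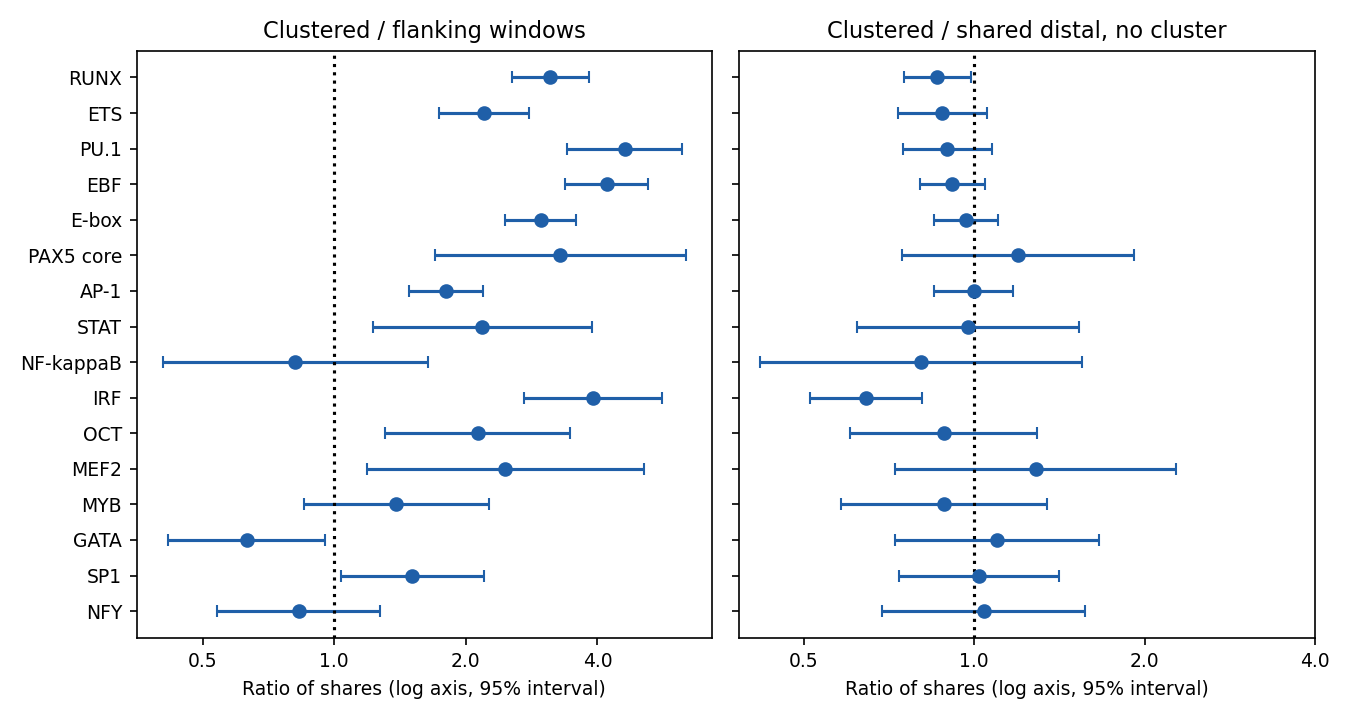
Ratio of the share of summit windows with a motif in members to that in flanking windows (left) and in shared distal regions in no cluster (right), on a log axis with 95% intervals, for 16 of the 18 motifs (CTCF and NRF-1, the rarest, are left out). PU.1, EBF and IRF lie highest on the left (4.62, 4.19 and 3.91) and IRF lies lowest on the right (0.64).

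EBF letters differed in frequency with the replicate number. They were in 24.7% of the 292 members that were higher in both replicate 1 libraries (Wilson interval 20.1 to 29.9) and in 10.6% of the 813 members higher in both replicate 2 libraries (8.65 to 12.9). RUNX letters, in 11.3% and 15.3% of these members, and E-box letters, in 14.0% and 15.5%, did not differ beyond their intervals (ratios 1.35, 0.94 to 1.93, and 1.10, 0.80 to 1.53). The 2 sets of members were chosen on their levels, so these shares are a description of them.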

How the data were processed

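ChIP-seq against the HA tag was analysed in 2 CDK6-WT and 2 CDK6-K43M libraries, grouped by the titles. As the study states, the authors trimmed reads with Trimmomatic 0.36, mapped them to mm10 with bwa-mem 0.7.15, removed blacklisted, multimapping and low-quality reads and called peaks per library with MACS2 2.1.0 at default settings. The deposited lists give each peak's fold enrichment (a ratio), the −log10 of its p-value and q-value, a score derived from the −log10 q and the summit offset (unit other). Library totals are not in them, and the depth of each library is therefore unknown. Summit reads were recovered from fold enrichment and −log10 p with 1 scaling factor per list.

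The level of a region was the log2 fold enrichment of its strongest peak in a library, centred on that library's median over all shared regions. Differences between the variants were tested with limma 3.58.1 (R 4.3.3; trend, Benjamini-Hochberg over 16376 regions) and by exact two-sided permutation over the 6 assignments of the libraries. Shares carry 95% Wilson intervals. Sequence came from RefSeq GRCm38.p6 and genes from GENCODE vM21, whereas the authors used M13. Clusters named were the 12 with most regions, the 5 with the highest mean log2 fold enrichment, the 3 with the largest variant difference in each direction and those within 50000 bp of listed genes. Clusters extreme in the replicate contrast, and those whose sequence is shown, were chosen after their values were seen. The members and lists were chosen with earlier results of these data known. Scripts were tested on simulated data. Computations ran in Python 3.11.15 (pandas 2.3.3, numpy 2.4.6, scipy 1.17.1).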

Additional observations from a re-analysis of the deposited data

How the results depend on the processing

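The number of clusters and members followed the rule's limits. Stitching at 5000 bp gave 240 clusters with 804 members and stitching at 25000 bp gave 2577 members. A peak in at least 3 of the 4 lists gave 776 clusters with 3026 members, and peaks with a −log10 q of at least 5 gave 228 with 795. Leaving out each library in turn gave 495 to 558 clusters and 1867 to 2107 members, in part because a peak was then needed in 3 lists. Listed genes near a cluster fell from 39 to 20 at a stitching distance of 5000 bp (all genes, from 3.86% to 1.99%), and the ratio of IRF shares was 0.503 there. The ratio of IRF shares had an interval below 1 in all 5 alternatives, and that of RUNX in 3 of 5. The difference between CDK6-K43M and CDK6-WT over members changed sign with the mean over the peaks of a region (-0.0091), and ran from -0.153 to 0.167 when 1 library was left out. It was below 0 without CDK6-WT replicate 1 (-0.124) or CDK6-K43M replicate 2 (-0.153). With 1 library left out, 1 variant keeps a single replicate number. These values therefore mix the variant difference with the replicate contrast, which was 0.29 over members, and the 2 cannot be told apart there. limma called 0 members under every alternative run; with the replicate number as a replicate block, 83 members (5.01%) had an unadjusted p under 0.05 against 5.19% of all shared regions, and the smallest adjusted p was 0.13. The replicate block left the level difference at 0.0070, since it is the mean of the within-number values. The numbers are only shared labels here, although deviations of same-numbered libraries had an r of 0.68 over members. Counts of members whose variants did not overlap, on 2 scales chosen after seeing the data, were 131 (7.91%) and 139 (8.39%) without centring, against 7.06% and 6.36% of all shared regions, and 169 (10.2%) and 95 (5.74%) for the percentile of −log10 q, against 9.84% and 5.09% (CDK6-K43M and CDK6-WT above). The lists give no read totals and limit any smaller difference from being detected.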
